A study of Homo sapiens with 13 samples.

Results

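Condensin and type II topoisomerase transcripts were followed after siRNA transfection in LNCaP-abl, a prostate cancer line derived from LNCaP that grows without androgen. The 10 genes were taken by symbol from the 22613 entries of each library: the condensin ATPases SMC2 and SMC4, the condensin I subunits NCAPD2, NCAPG and NCAPH, the condensin II subunits NCAPD3, NCAPG2 and NCAPH2, and the topoisomerases TOP2A and TOP2B. The 13 libraries, 1 per siRNA pool, were a control (siControl2) and 12 knockdowns, each named by its target. The targets were the forkhead factors FOXA1 and FOXM1, the PRC2 subunits EZH2 and EED, the insulator protein CTCF, the cohesin subunit RAD21, the chromatin remodeller SMARCA4, the histone demethylase KDM1A, the repair proteins BRCA1 and BRCA2, and the long non-coding RNAs MALAT1 and PCAT1. All were grown in charcoal-stripped serum, which is depleted of steroids, at passages 53 to 60, and collected 72 h after transfection. None of the 10 genes was an siRNA target. With 1 library per group there is no replicate error and no test between conditions, so each difference below describes a pair of libraries and no order of levels carries a spread. The files hold no read counts, which leaves sequencing depth unknown. In the library labelled siMALAT1 the targeted RNA was not lower than in the control, so it is named by its label throughout.

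Condensins are ring-shaped complexes that use ATP to fold chromatin into loops and so compact chromosomes for mitosis. SMC2 and SMC4 form the hinge and ATPase heads shared by condensin I and condensin II. Each complex adds its own kleisin, which closes the ring (NCAPH or NCAPH2), and its own pair of HEAT-repeat subunits (NCAPD2 and NCAPG, or NCAPD3 and NCAPG2). Condensin II sits in the nucleus throughout the cell cycle, whereas condensin I gains full access to chromosomes once the nuclear envelope breaks down. Type II topoisomerases pass a DNA duplex through a transient double-strand break. TOP2A is abundant in dividing cells and resolves sister chromatids in mitosis. TOP2B is also made in non-dividing cells and acts at transcribed genes.

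Upstream sequences of 5 genes are shown because motifs of cell cycle promoters fall at different places in them, and because they precede genes with very different patterns, from TOP2A and NCAPG, which were lowest relative to the control, to TOP2B, which was the most even. They are the 250 bases before an annotated start on GRCh38.p14, from RefSeq, written 5′ to 3′ in the direction of the gene. For TOP2B and SMC4, which have another start without matches, the start with matches is shown. Capitals mark whole matches to the CCAAT box (CCAAT, bound by NF-Y), to the cell cycle homology region or CHR (TTTGAA, bound by the DREAM and MuvB complexes) or to the E2F letters TTTCCCGC, TTTGGCGC and TTTCGCGC, all searched on both strands. No matches overlapped in these sequences.
TOP2A, chr17:40417897-40418146, minus strand: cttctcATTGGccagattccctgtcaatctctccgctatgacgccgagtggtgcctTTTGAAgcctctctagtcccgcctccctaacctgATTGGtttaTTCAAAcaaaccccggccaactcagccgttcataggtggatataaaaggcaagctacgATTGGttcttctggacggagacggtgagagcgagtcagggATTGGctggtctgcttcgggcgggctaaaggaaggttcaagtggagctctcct
TOP2B, chr3:25664908-25665157, minus strand: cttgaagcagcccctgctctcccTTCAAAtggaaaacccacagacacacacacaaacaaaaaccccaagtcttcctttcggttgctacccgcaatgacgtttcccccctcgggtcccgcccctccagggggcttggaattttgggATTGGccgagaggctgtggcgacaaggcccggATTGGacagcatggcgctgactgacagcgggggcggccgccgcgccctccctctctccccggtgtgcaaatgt
NCAPD2, chr12:6493852-6494101, plus strand: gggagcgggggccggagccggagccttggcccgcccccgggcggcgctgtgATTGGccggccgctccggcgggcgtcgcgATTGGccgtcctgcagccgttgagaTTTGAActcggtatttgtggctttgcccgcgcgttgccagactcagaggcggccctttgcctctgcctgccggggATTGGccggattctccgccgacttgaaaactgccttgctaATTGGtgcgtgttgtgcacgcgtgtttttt
NCAPG, chr4:17810729-17810978, plus strand: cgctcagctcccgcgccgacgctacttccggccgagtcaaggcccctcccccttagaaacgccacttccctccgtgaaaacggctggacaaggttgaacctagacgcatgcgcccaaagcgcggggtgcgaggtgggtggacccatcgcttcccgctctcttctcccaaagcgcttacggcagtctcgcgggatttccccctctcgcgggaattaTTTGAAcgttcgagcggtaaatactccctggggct
SMC4, chr3:160399400-160399649, plus strand: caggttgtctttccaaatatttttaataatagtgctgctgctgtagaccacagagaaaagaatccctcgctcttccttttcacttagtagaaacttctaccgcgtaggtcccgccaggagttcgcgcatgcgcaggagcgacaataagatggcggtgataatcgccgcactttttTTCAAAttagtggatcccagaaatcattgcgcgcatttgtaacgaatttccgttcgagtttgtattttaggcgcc

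Library labels and cell identity were checked once. Over the 11 targets analysed, 8 were lowest in their own library, while BRCA1 was the 3rd lowest, BRCA2 the 9th and MALAT1 the 12th of 13. In these libraries BRCA1 was at 1.83 FPKM (11.1 in the control), BRCA2 at 1.23 (3.25) and MALAT1 at 21.7 (16.4). The gene PCAT1 was not analysed, and its label was not checked. Of the luminal markers, HOXB13 (121 FPKM), KRT8 (127) and KRT18 (136) were present in the control, while the androgen-induced KLK3 and KLK2 were at 0.0513 and 0.214 FPKM. Of 9 markers of basal, immune, endothelial and fibroblast cells, 4 had an entry, and these, KRT14, PTPRC, PECAM1 and COL1A1, were at most 1.33 FPKM in the control and 3.14 in any knockdown.

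TOP2A had the lowest median level of the 10 genes relative to the control. It was at 32.9 FPKM (fragments scaled by transcript length and library size, here brought to a common distribution over libraries) in the control. It was at 24.1 FPKM in siEED, 23.2 in siBRCA2, 17.5 in siBRCA1, 15.4 in siKDM1A, 11.7 in siRAD21 and 11.04 in siPCAT1. The library labelled siMALAT1 had 9.67 FPKM, and TOP2A was at 7.57 in siSMARCA4, 4.46 in siCTCF, 2.58 in siEZH2, 2.11 in siFOXM1 and 1.44 in siFOXA1. Every knockdown library thus lay below the control, in a graded series. On the log2(FPKM + 1) scale, which understates changes of low genes, the difference from the control ran from -0.44 in siEED to -3.80 in siFOXA1. At least 2-fold means a difference of 1 or more on this scale, and TOP2A was 2-fold lower in 9 of 12 knockdowns, the exceptions being siBRCA1 (-0.88), siBRCA2 (-0.48) and siEED (-0.44). Of the 10 genes, 3 (TOP2A, SMC2 and NCAPG) were 2-fold lower in at least 9 knockdowns, which 0.539% of the 15780 genes kept were. At least 8 knockdowns were reached by 5 members (0.881% of all genes) and at least 6 by 7 (1.52%). These comparisons are uneven. All 10 members were at 11.9 FPKM or more in the control, whereas genes kept had means down to 0.5 FPKM. Low genes reach 2-fold less easily on this scale.

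TOP2B was the highest of the 10 genes in all 13 libraries and differed little between them. It was at 57.2 FPKM in the control, 57.7 in siKDM1A, 55.5 in siPCAT1, 53.6 in siRAD21, 52.9 in siSMARCA4, 51.0 in siEZH2, 50.4 in siBRCA2 and 50.2 in siCTCF. The library labelled siMALAT1 was at 48.2 FPKM, siBRCA1 at 46.4, siEED at 43.5, siFOXA1 at 41.4 and siFOXM1 at 34.9. No knockdown was 2-fold from the control, and the lowest difference was -0.70 in siFOXM1.

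The balance of the topoisomerases therefore differed between libraries mainly through TOP2A. TOP2B was 1.74-fold above TOP2A in the control, 1.81-fold in siEED and 2.17-fold in siBRCA2. It was 11.2-fold above TOP2A in siCTCF, 16.5-fold in siFOXM1, 19.7-fold in siEZH2 and 28.8-fold in siFOXA1. The summed FPKM of the pair was 90.1 in the control and lowest, 37.0, in siFOXM1, where both were low. The siEZH2 library had 53.5 FPKM in sum, close to its TOP2B level alone.

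**Figure D1:**
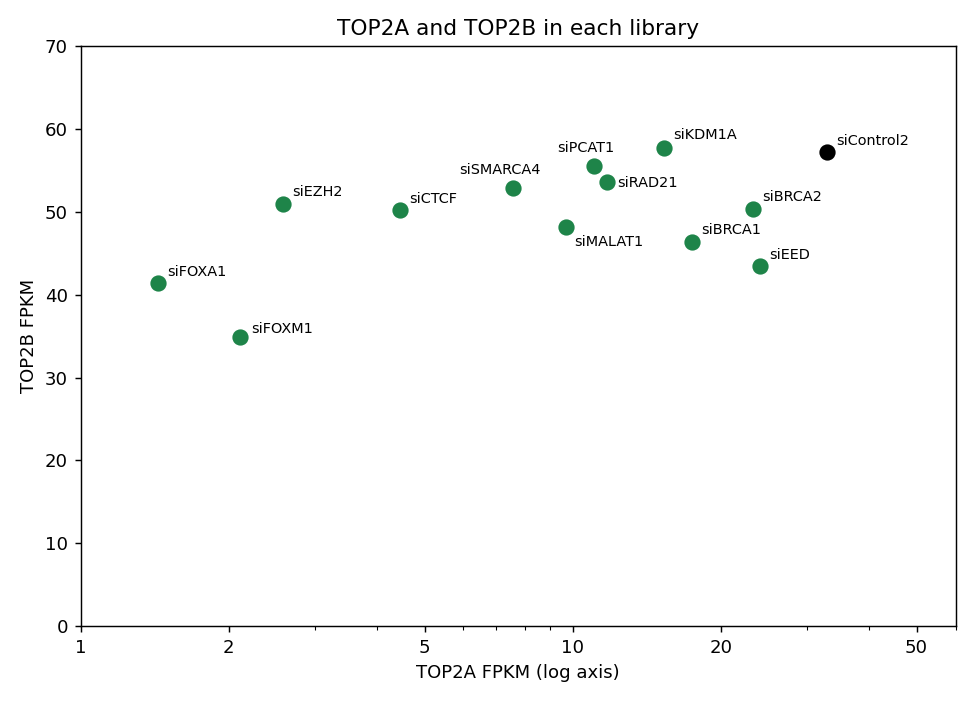
TOP2A level (FPKM, log axis) against TOP2B level (FPKM, axis from 0), 1 point per library with the control in black. TOP2A spans 1.44 to 32.9 FPKM while TOP2B stays between 34.9 and 57.7 FPKM.

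The ATPases SMC2 and SMC4 moved side by side. SMC2 was at 15.7 FPKM in the control and between 2.03 (siFOXM1) and 11.3 (siBRCA2) in the knockdowns. SMC4 was at 39.4 FPKM in the control and between 5.93 (siFOXA1) and 29.1 (siBRCA2). It was at most 7.44 FPKM in siFOXA1, siEZH2, siCTCF and siFOXM1 and at least 10.6 in the other 8 knockdowns. SMC2 was 2-fold lower in 9 knockdowns and SMC4 in 8, the difference being siPCAT1, where SMC4 lay at -0.99 and SMC2 at -1.08. The FPKM of SMC4 was 2.50 times that of SMC2 in the control. Over the knockdowns this ratio ran from 2.12 in siEED to 3.66 in siFOXM1, a narrower span than that of either level.

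Among condensin I subunits, NCAPG and NCAPH lay much lower than NCAPD2 where levels were low. NCAPG, a HEAT-repeat subunit, had the lowest FPKM of the 10 genes in every library. It was at 11.9 FPKM in the control, 9.44 in siBRCA2, 8.67 in siEED, 7.11 in siBRCA1, 4.85 in siKDM1A, 4.36 in siRAD21, 3.86 in siPCAT1, 3.79 in the library labelled siMALAT1 and 2.33 in siSMARCA4. It was at 1.42 FPKM in siCTCF, 0.879 in siEZH2, 0.806 in siFOXM1 and 0.596 in siFOXA1. That last value was 5.01% of the control. NCAPG was 2-fold lower in 9 knockdowns and lowest in siFOXA1 (-3.01). The kleisin NCAPH was at 13.1 FPKM in the control, 2.40 in siCTCF, 2.09 in siEZH2, 2.19 in siFOXM1 and 0.810 in siFOXA1, and was 2-fold lower in 8. It lay between 4.04 FPKM (siSMARCA4) and 9.79 (siBRCA2) in the other 8 libraries. NCAPD2, the other HEAT-repeat subunit, was at 40.1 FPKM in the control and no lower than 10.9 (siEZH2), with 2-fold lower levels in 6. Its other values were 27.5 FPKM in siBRCA2, 28.7 in siEED, 24.8 in siBRCA1 and between 11.5 (siFOXM1) and 22.8 (the library labelled siMALAT1) in the rest. NCAPD2 was 3.37-fold above NCAPG in the control and 21.8-fold above it in siFOXA1.

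The subunits of condensin II fell into 2 patterns. NCAPG2, the counterpart of NCAPG, was at 21.9 FPKM in the control and down to 2.39 in siFOXM1 and 3.10 in siFOXA1, and was 2-fold lower in 7 knockdowns. It lay between 3.64 FPKM (siEZH2) and 16.6 (siBRCA2) in the other 10. NCAPD3, which takes the place of NCAPD2, was at 19.97 FPKM in the control and was 2-fold lower only in siCTCF (7.48 FPKM) and siFOXA1 (6.25 FPKM). In the other 10 it lay between 10.1 FPKM (siPCAT1) and 17.3 (siEED). The kleisin NCAPH2 was at 23.7 FPKM in the control, 24.8 in siEED and 12.1 in siFOXM1, and was 2-fold lower in 0 of 12. It lay between 12.8 FPKM (siCTCF) and 19.1 (siSMARCA4) in the other 10. NCAPH2 levels in siSMARCA4 (19.1 FPKM) and siEZH2 (18.8 FPKM) were above those in siBRCA1 (15.4 FPKM) and siKDM1A (15.3 FPKM), the reverse of the order of TOP2A. NCAPH2 was 1.08-fold above NCAPG2 in the control and 5.16-fold above it in siEZH2. In the RefSeq table NCAPH2 overlaps SCO2, NCAPD3 overlaps VPS26B and JAM3, and TOP2B overlaps RARB. NCAPG overlaps LCORL, SMC4 overlaps TRIM59-IFT80, NCAPD2 overlaps GAPDH-DT and SMC2 overlaps SMC2-DT. Overlapping short RNAs and loci without a gene name are not listed here. SMC4, NCAPD2 and NCAPG have named pseudogene copies. No source states how strand or shared reads were handled, so reads from these neighbours and copies cannot be told apart from the genes' own.

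**Figure D2:**
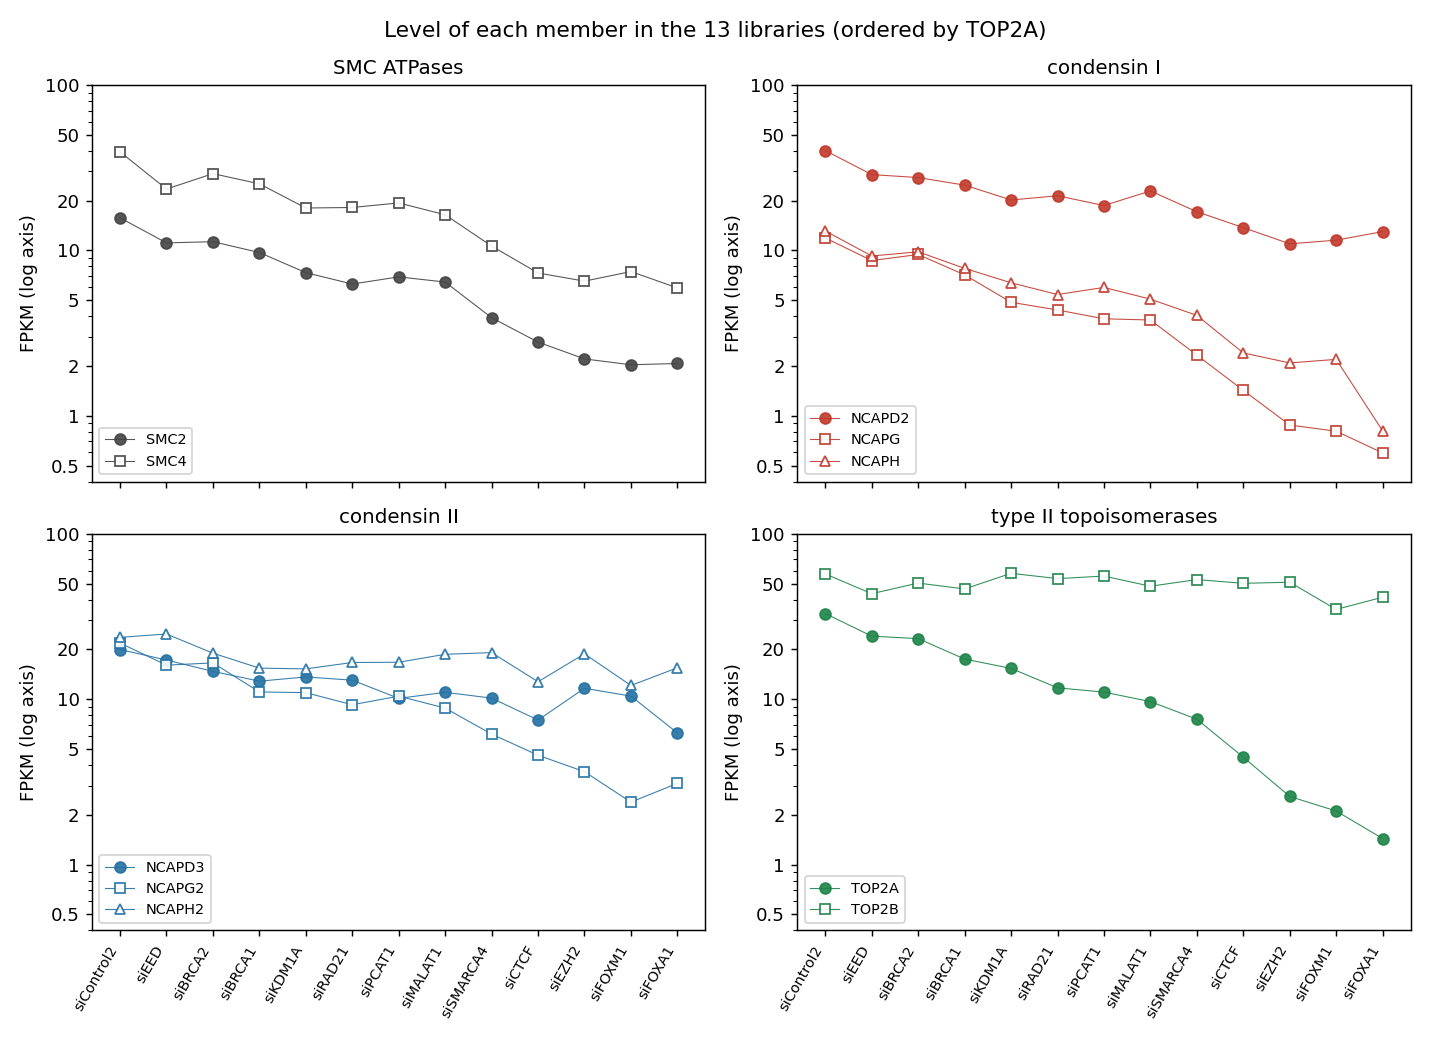
Level of each of the 10 genes (FPKM, log axis) in the 13 libraries, in 4 panels by role, with libraries ordered by TOP2A from the control at 32.9 to siFOXA1 at 1.44 FPKM. Lines join the values of 1 gene and stand for no order in time or dose; NCAPG, NCAPH and TOP2A drop furthest to the right, while NCAPH2 is no lower than 51.2% and TOP2B no lower than 61.0% of the control.

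The mean FPKM of the condensin I subunits was level with that of condensin II in the control, at 21.7 against 21.8, a log2 ratio of -0.0090. The log2 ratio was 0.013 in siBRCA1 and -0.10 in siBRCA2. Condensin II subunits stood above condensin I in 11 of 12 knockdowns, from siBRCA2 through the library labelled siMALAT1 (-0.28), siEED (-0.32), siRAD21 (-0.32), siKDM1A (-0.34), siPCAT1 (-0.39), siCTCF (-0.50) and siSMARCA4 (-0.59) to siFOXM1 (-0.78), siFOXA1 (-0.79) and siEZH2 (-1.29). With the mean of log2(FPKM + 1) of the 3 subunits in place of mean FPKM, the difference was -0.22 in the control, -0.19 in siBRCA1, which changed sign, -1.20 in siFOXA1 and -1.36 in siEZH2. In siEZH2 the means were 4.64 FPKM for condensin I and 11.4 for condensin II. That library was the lowest in NCAPD2 while NCAPD3 was at 11.6 FPKM and NCAPH2 at 18.8. In siFOXA1, with a similar condensin I mean of 4.80 FPKM, NCAPD3 was at 6.25.

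Over 10 genes and 12 knockdowns, 58 of 120 pairs were 2-fold lower than the control, 0 were 2-fold higher and 118 were below the control at all. Over all genes kept, 3865 of 189360 pairs (2.04%) were 2-fold lower, 2079 were 2-fold higher and 88841 were below the control at all. By role, 17 of 24 pairs were 2-fold lower for the SMC ATPases, 23 of 36 for condensin I, 9 of 36 for condensin II and 9 of 24 for the topoisomerases, all 9 of these being TOP2A. Of the 9 condensin II pairs, 7 were NCAPG2. The 12 comparisons share the 1 control library. For 8 of the 10 genes, all but NCAPH2 and TOP2B, that control lay above all 12 knockdowns, which 5.28% of all genes kept did. With the median of the other 11 knockdowns as the reference instead, 21 pairs were 2-fold lower, all in siCTCF, siEZH2, siFOXA1 and siFOXM1. Without the siBRCA1, siBRCA2 and siPCAT1 libraries and the one labelled siMALAT1, 47 of 80 pairs were 2-fold lower, where 2.49% of all genes were. Without siFOXA1 and siFOXM1, where interferon genes were highest, 43 of 100 were, where 1.67% of all genes were.

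The siFOXA1 library had 8 of 10 genes 2-fold lower, where 4.22% of all genes kept were, and the siCTCF library had 8 against 2.85%. NCAPH2 and TOP2B were the 2 genes not counted in both. The siFOXM1 (3.6%), siEZH2 (3.09%) and siSMARCA4 (1.97%) libraries had 7 each, with NCAPD3 as the further exception. The siRAD21 library (1.88%) and the library labelled siMALAT1 (1.57%) had 6, siPCAT1 (1.33%) had 5 and siKDM1A (1.55%) had 4. The siBRCA1 (0.944%), siBRCA2 (0.76%) and siEED (0.741%) libraries had 0, and shares this small cannot set 0 of 10 apart. The median differences of the members there were -0.66, -0.40 and -0.43. No member was 2-fold higher in any of the 12. The shares of all genes were too small for 0 of 10 to set the members apart. They were 3.52% in siFOXA1, 2.59% in siFOXM1, 1.27% in siCTCF and 0.906% in siRAD21. The share of all genes 2-fold higher was 0.894% in siEZH2 and 0.817% in siEED. That share was 0.767% in siBRCA2, 0.754% in siKDM1A, 0.494% in siSMARCA4, 0.45% in siBRCA1, 0.387% in the library labelled siMALAT1 and 0.323% in siPCAT1. The median difference of the 10 genes ran from -0.40 in siBRCA2 to -2.46 in siFOXA1, against medians between 0.0057 and 0.054 over all genes kept.

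**Figure D3:**
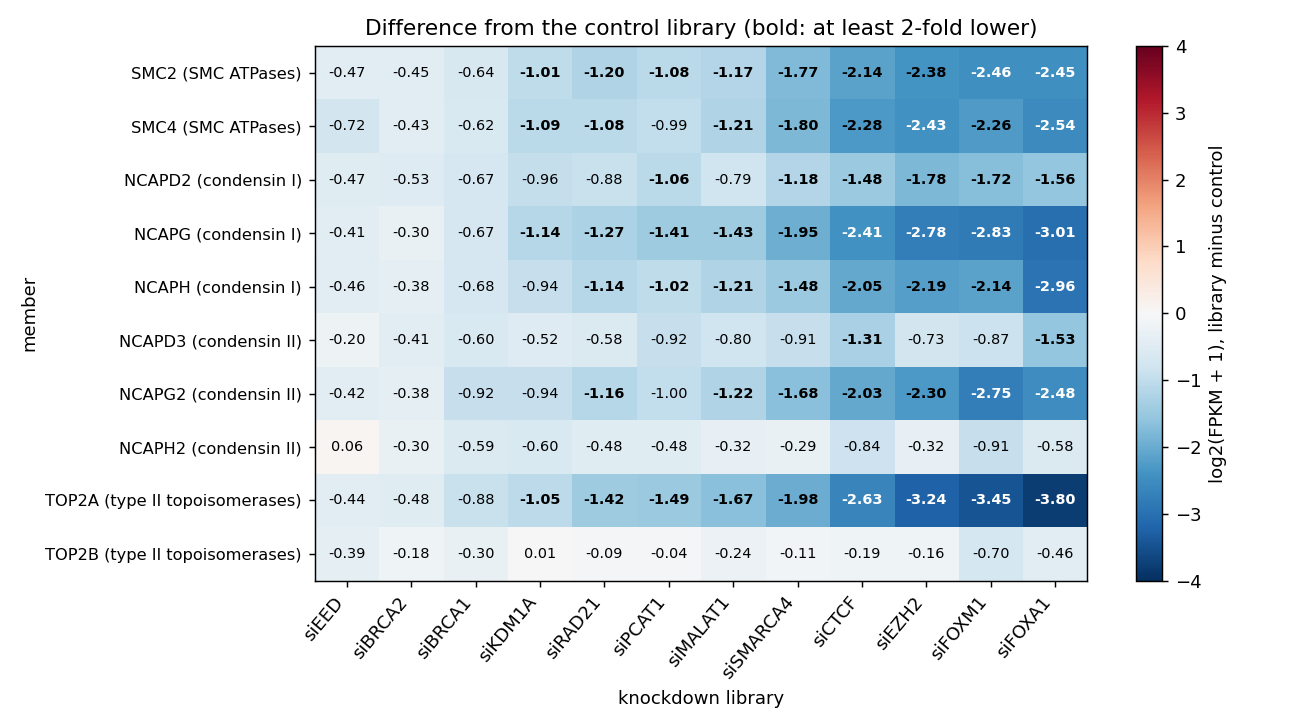
Difference of each gene (rows) from the control library in each knockdown (columns) on the log2(FPKM + 1) scale, with bold print for at least 2-fold lower. The darkest cells are TOP2A in siFOXA1 (-3.80) and siFOXM1 (-3.45), and the NCAPH2 and TOP2B rows hold no bold value.

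As shares of the control level, on FPKM without a pseudocount, TOP2A and NCAPG were lowest and TOP2B highest. The median over the 12 knockdowns was 31.5% of the control for TOP2A, 32.2% for NCAPG, 40.01% for NCAPH, 40.3% for SMC2, 41.4% for NCAPG2, 43.7% for SMC4 and 48.4% for NCAPD2. It was 56.7% for NCAPD3, 70.6% for NCAPH2 and 87.9% for TOP2B. Neighbours in this order overlapped widely over the libraries.

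**Figure D4:**
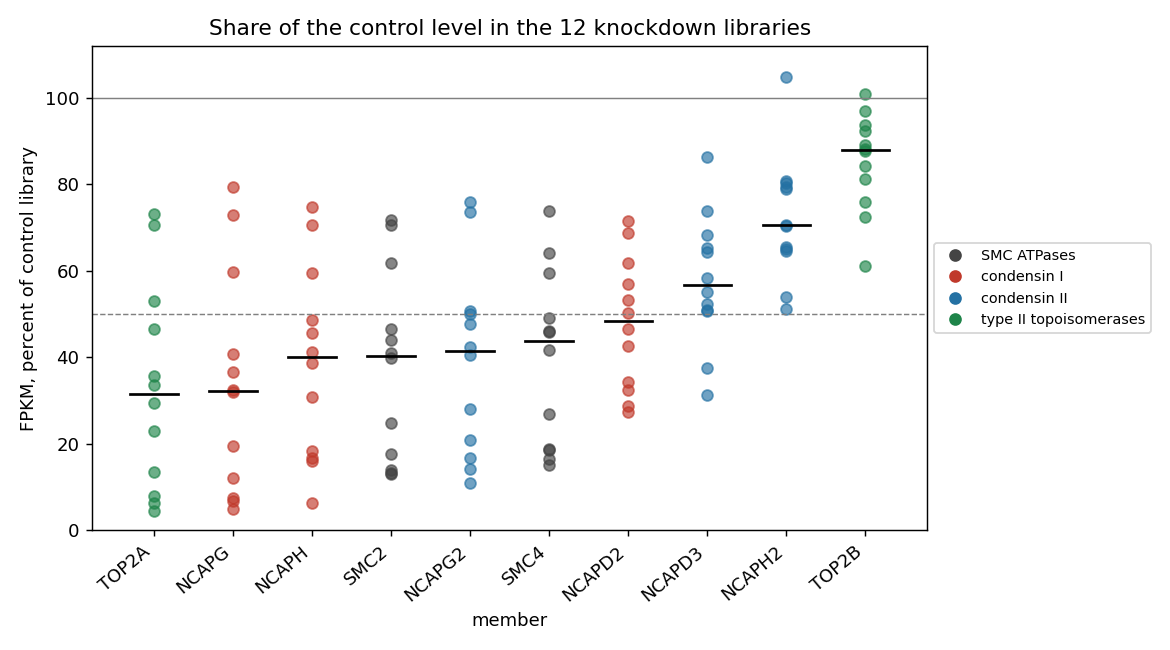
FPKM of each gene as a percent of the control library, 1 point per knockdown library (12 per gene) with the median as a black line; the dashed line marks 50% and the solid line 100%. TOP2A and NCAPG have the lowest medians, 31.5% and 32.2%, and TOP2B the highest, 87.9%.

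Direct comparison of related knockdowns needed no control library. FOXA1 is a pioneer factor and FOXM1 a proliferation-associated factor of the same family. Between these libraries 0 of the 10 genes were 2-fold apart on the log2(FPKM + 1) scale. Of all genes, 3.03% were lower and 2.57% higher in siFOXA1. Here and in the pairs below, such shares were too small for 0 of 10 to set the members apart. The widest gap was the kleisin NCAPH, at 0.810 FPKM in siFOXA1 and 2.19 in siFOXM1, a difference of -0.82 that became -1.33, past 2-fold, with a pseudocount of 0.1, where 5.74% of all genes were lower. It was followed by NCAPD3 (6.25 and 10.4 FPKM, -0.66). EZH2 and EED are subunits of the same complex. In siEZH2, 7 of 10 genes were 2-fold lower than in siEED (2.81% of all genes were) and 0 were higher (1.05% of all genes), with TOP2A at 2.58 against 24.1 FPKM (-2.81) and NCAPG at 0.879 against 8.67 (-2.36). TOP2B was slightly higher in siEZH2, at 51.0 against 43.5 FPKM. EED itself was at 4.13 FPKM in siEED and 8.94 in the control, a shallower difference (-0.95) than that of EZH2 in siEZH2 (-2.44), and the part of knockdown depth was not tested. CTCF and RAD21 meet at chromatin loop anchors. In siCTCF, 3 of the 10 genes were 2-fold lower than in siRAD21 (1.79% of all genes were) and 0 higher (1.84%), namely TOP2A (-1.22), SMC4 (-1.21) and NCAPG (-1.14). With a pseudocount of 0.1 the count was 5 (3.94% of all genes), with SMC2 (-1.14) and NCAPH (-1.14) added.

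Genes of cell division moved in the same libraries. Over 10 G2/M genes the median difference ran from -0.27 in siEED and -0.35 in siBRCA2 to -3.25 in siFOXM1 and -3.36 in siFOXA1, and over 10 G1/S genes from -0.30 to -2.68. TOP2A lay within 0.44 of the G2/M median in all 12 knockdowns and NCAPG within 0.41, whereas TOP2B lay 2.90 and NCAPH2 2.78 above it in siFOXA1. The part of cell division in these differences was not tested. In bulk RNA, fewer cells in a phase of the cycle and less RNA per cell cannot be told apart. Over 8 interferon-stimulated genes the median difference was 6.29 in siFOXM1, 4.43 in siFOXA1, 2.74 in siBRCA2 and 1.53 in siBRCA1. It was 1.35 in siRAD21, 1.21 in siCTCF, 1.17 in siKDM1A and 1.02 in siEZH2. The lowest medians were 0.57 in siPCAT1, 0.39 in siSMARCA4, 0.35 in siEED and 0.17 in the library labelled siMALAT1. The part of interferon genes was not tested.

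Of 10 regulators and partners of condensin on mitotic chromosomes, 53 of 120 pairs (44.2%, against 2.04% over all genes kept) were 2-fold lower and 0 higher. PLK1, a mitotic kinase that phosphorylates condensin, was 2-fold lower in 10 knockdowns (36.3 FPKM in the control, 2.41 in siFOXA1). AURKB, the kinase that promotes condensin I loading, and CCNB1, the cyclin partner of CDK1, were 2-fold lower in 9. CDK1 and the chromokinesin KIF4A, which helps bring condensin I to the chromosome axis, were 2-fold lower in 8. MCPH1, which restrains condensin II, ranged only from 7.60 to 11.1 FPKM over the knockdowns (8.12 in the control), and the condensin-binding protein AKAP8 from 11.6 to 13.4 (12.4 in the control). The last 2 were named after their values were seen.

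Of 10 other topoisomerases and TOP2 partners, 12 of 120 pairs were 2-fold lower, or 10% against 2.04% over all genes kept, and 1 was higher. ERCC6L, the PICH translocase that works with TOP2A on anaphase bridges, accounted for 6 of the 12 (4.59 FPKM in the control, 0.182 in siFOXA1) and the checkpoint protein TOPBP1 for 4. TDP1 and TDP2, which remove trapped topoisomerases from DNA, were each 2-fold lower in 1 knockdown, TDP1 in siBRCA2 and TDP2 in siKDM1A. The 1 higher value was TDP1 in siFOXA1, at 37.3 FPKM against 11.1 in the control. TOP1, the main type I enzyme, was at 65.9 FPKM in the control and between 64.0 and 89.7 in the knockdowns; it was named after its values were seen. Of the other SMC complexes, 8 of 60 pairs of the 5 cohesin genes (13.3%) were 2-fold lower. Among these 8, 1 was RAD21, the siRNA target, in siRAD21. For the 6 SMC5/SMC6 genes 0 of 72 pairs were 2-fold lower, near the 2.04% over all genes kept. No test of the difference between these lists was possible with 1 library per group.

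The genes whose levels most resembled each member over the 13 libraries were named by Pearson's r of log2(FPKM + 1) among 11989 named genes, as a description. TOP2A was most like the cyclin CCNB2 (r = 0.998), the checkpoint kinase BUB1B and the anaphase activator CDC20. SMC2 and NCAPG were both most like the spindle checkpoint kinase TTK (0.996 and 0.997), SMC4 like the cytokinesis factor ECT2 (0.986), NCAPH like the spindle protein TACC3 (0.988), NCAPG2 like the mitotic phosphatase partner CDCA2 (0.995) and NCAPD2 like the augmin subunit HAUS8 (0.987). Likeness was lower for NCAPD3, closest to the cyclin CCNF (0.942), TOP2B, closest to the transcription kinase CDK12 (0.916), and NCAPH2, closest to PAQR4 (0.901). TOP2B and NCAPH2 were also the members least like the others, with r from 0.33 to 0.55 between TOP2B and the other 9 genes, and from 0.58 to 0.68 between NCAPH2 and the 8 besides TOP2B. The points share 1 set of libraries brought to a common distribution. These names depended on the libraries: without siFOXA1 and siFOXM1, NCAPH and TOP2B shared 0 of their 3 nearest genes with those over all libraries, and TOP2A shared 1.

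In the promoter windows of 300 bases, from 250 before to 50 after the start, matches were found both in genes that were low after knockdown and in TOP2B. The table held 13 windows for 9 of the 10 genes, NCAPH2 being the gene not matched. TOP2A, shown above, held 4 CCAAT boxes and 2 CHR matches, and NCAPD2 held 4 CCAAT boxes and 1 CHR. At least 4 CCAAT boxes were found in 0.996% of 34943 windows of this length, and at least 1 CHR match in 15.2%. NCAPG held 1 CHR match and 0 CCAAT boxes. So did 1 start each of SMC4 and SMC2, whose other starts held 0 of either. NCAPH held 1 CCAAT box and 0 CHR matches, and 1 start of NCAPD3 held 2 CCAAT boxes and 1 CHR. At least 1 CCAAT box was found in 34.6% of windows. The window of NCAPG2 had 1 CHR match 36 bases after the start. The upstream start of TOP2B, the gene with the most even levels, held 2 CCAAT boxes and 1 CHR, and its other start held 0 of either. At least 2 CCAAT boxes were found in 10.8% of windows. An E2F match, present in 2.72% of windows, was found only at 1 of the 2 starts of NCAPD3. A match of letters is no sign that a factor binds there.

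**Figure D5:**
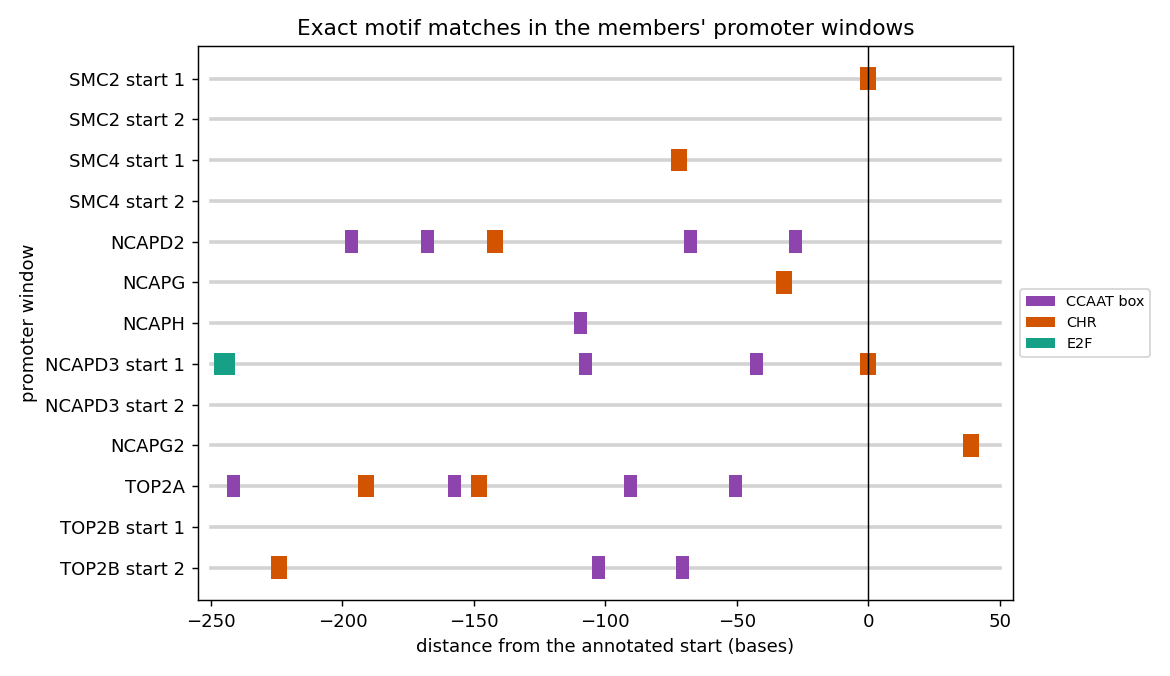
Position of exact motif matches (coloured blocks) in the 13 promoter windows of 9 genes, in bases from the annotated start at 0; genes with more than 1 start have 1 line per start. TOP2A and NCAPD2 carry 4 CCAAT boxes each.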

How the data were processed

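RNA was profiled in 13 libraries of LNCaP-abl cells, 1 per siRNA pool. Libraries were made with a TruSeq RNA kit, per the labels' protocols. TopHat and Cufflinks were used with hg19, per the submitters' processing notes, which give no version. The authors deposited log2 FPKM for 22613 entries. The lowest value was the log2 of 0.1, so values were read as log2(FPKM + 0.1). Sorted values differed by at most 0.0562 between libraries, so they had been brought to a common distribution. No counts were used, so depth is unknown and no counting interval is given.

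Here the values were turned back to FPKM and expressed as log2(FPKM + 1). Genes with a mean of at least 0.5 FPKM were kept, without 759 short RNA entries, which left 15780. PCAT1 as a gene was not analysed here, and some markers are not reported here. All 10 members passed. Differences are library minus control, and at least 2-fold is a difference of 1. Likeness was Pearson's r among named genes with a mean of at least 1 FPKM. From the gene lists, up to 4 genes with the most 2-fold differences were named, 5 where tied; others are marked. Members and lists were chosen with earlier results of these data known. The scripts were tested on simulated data. Alternatives were a pseudocount of 0.1, quantile normalization, median centring, the other 11 knockdowns as reference, no filter, Spearman's rho and leaving out libraries. RefSeq sequences are on GRCh38.p14, not hg19, and are used for letters only. Python 3.11.15, numpy 2.4.6 and pandas 2.3.3 were used.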

Additional observations from a re-analysis of the deposited data

How the results depend on the processing

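No paired analysis was possible because each group has 1 library. Depth is unknown, so what it limits cannot be stated. With a pseudocount of 0.1, quantile normalization or centring, the counts of members 2-fold lower than the control stayed within 1.5 times in each knockdown. No 2-fold difference changed sign. Quantile normalization and centring could change little here, because the deposited values already shared a common distribution. The log2 ratio of TOP2A to TOP2B in siFOXA1 was -4.12, and -4.75 with a pseudocount of 0.1. Between related knockdowns, checked after seeing the data, members lower in siFOXA1 than in siFOXM1 numbered 1 at that pseudocount in place of 0, and in siCTCF than in siRAD21 5 in place of 3. The percent of all genes past 2-fold was over 1.5 times larger at that pseudocount in all 12 knockdowns, in each direction.

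The reference mattered most. Against the median of the other 11 knockdowns, 21 pairs were 2-fold lower in place of 58: 7 for the SMC ATPases, 7 for condensin I, 3 for condensin II and 4 for the topoisomerases. The count was 3 in siCTCF and 0 in siKDM1A, siPCAT1, siRAD21, siSMARCA4 and the library labelled siMALAT1, and 2 members, NCAPG and TOP2A, were 2-fold higher in each of siBRCA2 and siEED. In siKDM1A the differences turned to 0.20 for SMC2, 0.13 for SMC4, 0.29 for NCAPG and 0.62 for TOP2A. In siRAD21 they turned to 0.14 for SMC4, 0.16 for NCAPG, 0.077 for NCAPH, 0.061 for NCAPG2 and 0.25 for TOP2A. In siPCAT1 they turned to 0.12 for SMC2, 0.020 for NCAPG, 0.20 for NCAPH and 0.17 for TOP2A, and in the library labelled siMALAT1 to 0.035 for SMC2. The cause was not tested. By Spearman's rho, the 3 genes most like a member shared 0 with those by Pearson's r for 6 members, 1 for NCAPG2 and TOP2B and 2 for NCAPH2 and TOP2A. Without siFOXA1 and siFOXM1, 0 of the 3 were shared for NCAPH and TOP2B, 1 for NCAPD2, NCAPD3, NCAPG2, NCAPH2 and TOP2A, 2 for SMC2 and SMC4 and 3 for NCAPG. Leaving out these libraries, or siBRCA1, siBRCA2, siPCAT1 and the one labelled siMALAT1, both chosen after seeing the data for this count, kept the shares of 2-fold lower pairs within 1.5 times.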

Other observations

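The 5 genes of cohesin, the SMC complex that holds sister chromatids together, included 8 of 60 pairs 2-fold lower than the control and 1 higher. Over all genes kept, 3865 of 189360 pairs (2.04%) were lower and 2079 higher. Of the 8 cohesin pairs, 4 were in siEZH2, and siCTCF, siFOXA1, siFOXM1 and siRAD21 had 1 each. The pair in siRAD21 was RAD21 itself, the siRNA target. RAD21, the kleisin, was 2-fold lower in 4 knockdowns, from 88.5 FPKM in the control to 6.97 in its own knockdown. SMC1A was 2-fold lower in 2 (23.0 FPKM in the control, 7.64 in siFOXM1) and SMC3 in 1 (37.7 and 10.6 in siEZH2). STAG1 was lower in siEZH2 (1.95 FPKM) and higher in siRAD21 (17.0) than in the control (5.70). STAG2 stayed between 25.4 and 49.4 FPKM (41.2 in the control) and was named after its values were seen.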
